A study of Mus musculus with 6 samples.

Results

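The extracellular matrix genes described here are the collagens, the laminins, the nidogens Nid1 and Nid2, and Fn1, Hspg2, Sparc and Agrn, measured by RNA sequencing of whole mouse testis. They were chosen by symbol alone, and 62 of the 24411 genes in the files matched: 44 collagen chains, 11 laminin chains, 6 linker proteins and glycoproteins, and Col4a3bp. Col4a3bp matches only through its older name. RefSeq lists it as Cert1, and it encodes a ceramide transfer protein, not a collagen.

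All libraries came from C57BL/6 mice, an inbred laboratory strain, and from testis tissue of age-matched animals whose age is not given. Of the 6 libraries, 3 carried the genotype MRP5-/- and MRP9-/- (labelled DKO, for double knockout) and 3 were labelled wildtype (WT). MRP5 and MRP9 are ABC transporters encoded by Abcc5 and Abcc12. How the alleles were made is not given in the sources used here. The comparison asks which matrix genes differ between testes with these genotype labels. The labels do not say more about how the animals were sampled, so p-values measure the spread between these 6 samples.

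Basement membranes are thin sheets of matrix under epithelia and around vessels and muscle. Laminin heterotrimers and type IV collagen each form a network, and nidogens, perlecan and agrin link and load them. In the testis such a sheet surrounds each seminiferous tubule, between the Sertoli cells inside and the contractile peritubular myoid cells outside. Interstitial fibroblasts, vessels and Leydig cells lie beyond it among fibrillar collagens.

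The libraries labelled DKO held 42673615 to 67131103 expected counts and those labelled WT held 26753721 to 31745969. Mean fragment length was 275 to 317 bases in the DKO-labelled libraries and 230 to 258 in the WT-labelled ones, so depth and fragment length both separated the groups and cannot be told apart from genotype. Abcc12, 1 of the targeted genes, was lower in the DKO-labelled libraries at 79.0 ± 5.56 against 160 ± 3.93 CPM (SD, n = 3), where CPM is the count relative to the scaled library total. The other, Abcc5, went against the label, at 16.8 ± 0.19 against 11.4 ± 0.90 CPM (SD, n = 3). The deleted exons are not given, so neither value checks the alleles themselves.

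Upstream sequences are shown for Hspg2 and Col9a1, the only members that passed the test for a difference between the labelled groups. They were read from RefSeq on GRCm38.p6, 5′ to 3′ on the plus strand. Capitals mark matches, on either strand, to GGGCGG (the GC box), CCAAT or TATAAA. The Hspg2 sequence is chr4:137468553-137468750, just before the gene at chr4:137468751-137570630. The first Col9a1 sequence, chr1:24177360-24177588, lies just before that gene at chr1:24177589-24252738, and the second, chr1:24194953-24195202, precedes an internal start that gives a shorter transcript.
Hspg2: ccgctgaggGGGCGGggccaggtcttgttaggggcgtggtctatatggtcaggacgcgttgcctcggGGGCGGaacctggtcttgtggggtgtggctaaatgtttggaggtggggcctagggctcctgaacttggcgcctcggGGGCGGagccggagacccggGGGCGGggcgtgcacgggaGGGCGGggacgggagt
Col9a1 first start: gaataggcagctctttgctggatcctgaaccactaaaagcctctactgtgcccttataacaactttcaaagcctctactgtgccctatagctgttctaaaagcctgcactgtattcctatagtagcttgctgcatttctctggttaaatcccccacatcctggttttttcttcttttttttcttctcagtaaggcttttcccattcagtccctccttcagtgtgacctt
Col9a1 second start: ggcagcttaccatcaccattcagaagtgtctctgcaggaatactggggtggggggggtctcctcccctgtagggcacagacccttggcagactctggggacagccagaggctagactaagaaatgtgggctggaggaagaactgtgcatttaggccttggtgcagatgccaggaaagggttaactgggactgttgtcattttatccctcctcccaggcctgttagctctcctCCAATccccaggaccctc
Hspg2 carried 5 GC boxes in its 198 bases, which were 70.2% G or C. The first Col9a1 sequence held no match and was 43.2% G or C, while the second held 1 CCAAT. For the motif shares, the full 250 bases before each start site in the RefSeq table were searched, which gave 50 windows for 45 of the 62 members. The Hspg2 and first Col9a1 sequences printed above stop where the gene's full span begins. GGGCGG was in 58% of them against 32.7% of all 32851 windows, CCAAT in 30% against 33.8%, and TATAAA in 10% against 12.4%. These matches describe letters and not bound sites.

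Levels between genes are compared in TPM, a transcript abundance relative to the library total that corrects for transcript length. Sparc, a secreted collagen-binding glycoprotein made by Sertoli and other cells, stood far above the rest. Its level was 265, 252 and 317 TPM in DKO-labelled libraries 1, 2 and 3 and 268, 420 and 332 TPM in WT-labelled libraries 1, 2 and 3. The groups overlapped, and WT-labelled library 2 was the highest. Sparc made up 45.9% of the summed TPM of all members, and together with Col22a1, Col16a1, Col4a3bp and Col2a1 it made up 67.3%. Only 10 members exceeded a mean of 10 TPM, 36 lay between 1 and 10, and 16 were under 1. The most abundant collagens were therefore not the interstitial type I and III chains but Col22a1 (51.5 TPM over all libraries), Col16a1 (38.6 TPM) and Col2a1 (23.0 TPM). Bulk tissue does not show which cells made these transcripts.

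**Figure D1:**
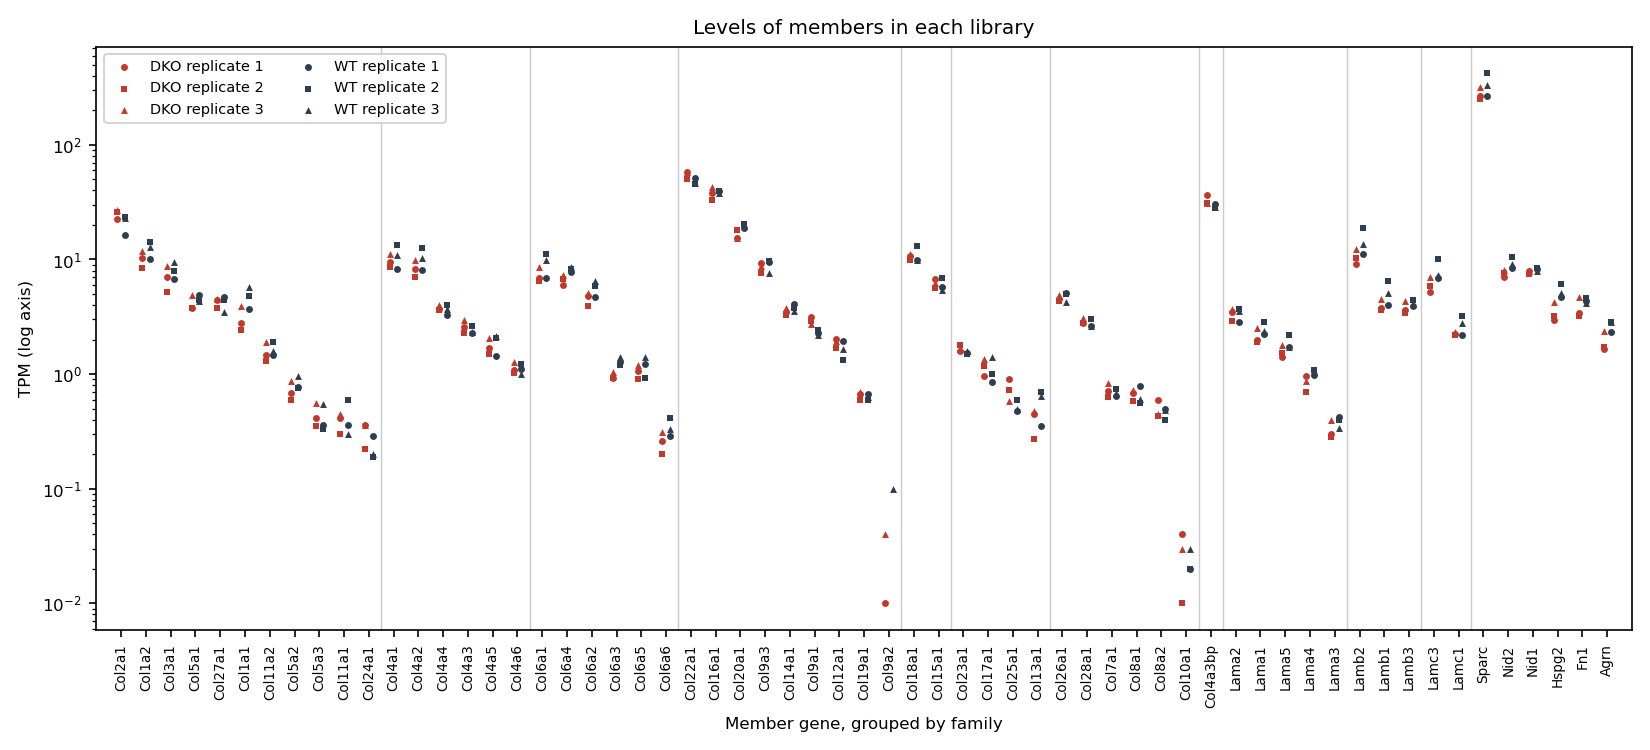
Deposited TPM of the members in the 6 libraries, on a log axis and grouped by family, with 1 point for each library (red DKO-labelled, dark blue WT-labelled) and values of 0 (Col9a2 in 3 libraries) not drawn. Sparc lies above every other member, and in most members the DKO-labelled and WT-labelled points overlap.

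Of the 62 members, 60 had enough counts to be tested. Col10a1, a cartilage collagen, was at 0.01 to 0.04 TPM, and Col9a2 at 0 to 0.1 TPM with 3 libraries listed at 0. Differences are log2 fold changes, DKO-labelled over WT-labelled, from the quasi-likelihood test of edgeR. The fit covered 17110 genes, and calls were made where the Benjamini-Hochberg adjusted p was under 0.05. By that rule 2 members were called, 3.33% of those tested, against 10.8% of all tested genes. Hspg2 fell (5.1% of all genes were called lower) and Col9a1 rose (5.75% were called higher). At an unadjusted p under 0.05, 15 members passed, 25% of those tested against 31.7% of all genes, with 10 lower and 5 higher. DESeq2 gave an adjusted p to 54 members and called 9 of them, 4 higher and 5 lower. Of the 13752 genes to which it gave an adjusted p, it called 21.3% (12.2% higher and 9.07% lower).

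The count of 2 depended on single libraries. No member was called without DKO-labelled library 1, DKO-labelled library 2, WT-labelled library 2 or WT-labelled library 3, with 9, 15, 9 and 11 members at an unadjusted p under 0.05 in those fits, as were 20.9%, 27.9%, 21.8% and 24.8% of all genes. Without DKO-labelled library 3, 9 members were called, and without WT-labelled library 1, 8 were. The share of all genes called at the adjusted threshold was 0.0643%, 3.83%, 0.0747% and 0.0402% in the fits with no member called and 17.7% and 11.7% in the other two. With all libraries kept, 2 members were called with DESeq2 size factors (11.1% of all genes), 5 without a count filter (11%), 3 at a mean count of at least 50 (14%), 3 with counts thinned to the smallest library total (9.74%) and 1 with an offset from the effective lengths (9.71%). None was called by limma on log2(TPM + 1) (4.3% of all genes) or on log2(TPM + 0.1) (5.53%). At an unadjusted p under 0.05, 12 and 11 members passed there, against 28.6% of all genes in both.

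The differences were small. The median log2 fold change of the members was -0.04 against -0.0042 for all tested genes, and the median size without sign was 0.17 against 0.18. No member reached a log2 fold change of 1 in either direction, and the largest size was 0.57. Standard errors ran from 0.0719 to 0.279 with a median of 0.12. The fitted value was below 0 for 35 members and above 0 for 25, while 8670 of the 17110 tested genes were below 0. The CPM values of the groups did not overlap for 14 members, 23.3% of those tested against 35.9% of all genes. The members that did not overlap were 7 lower ones (Agrn, Col6a3, Col6a4, Hspg2, Lama4, Lamc3 and Nid2; 17.5% of all genes) and 7 higher ones (Col22a1, Col23a1, Col25a1, Col28a1, Col2a1, Col4a4 and Col9a1; 18.4% of all genes).

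**Figure D2:**
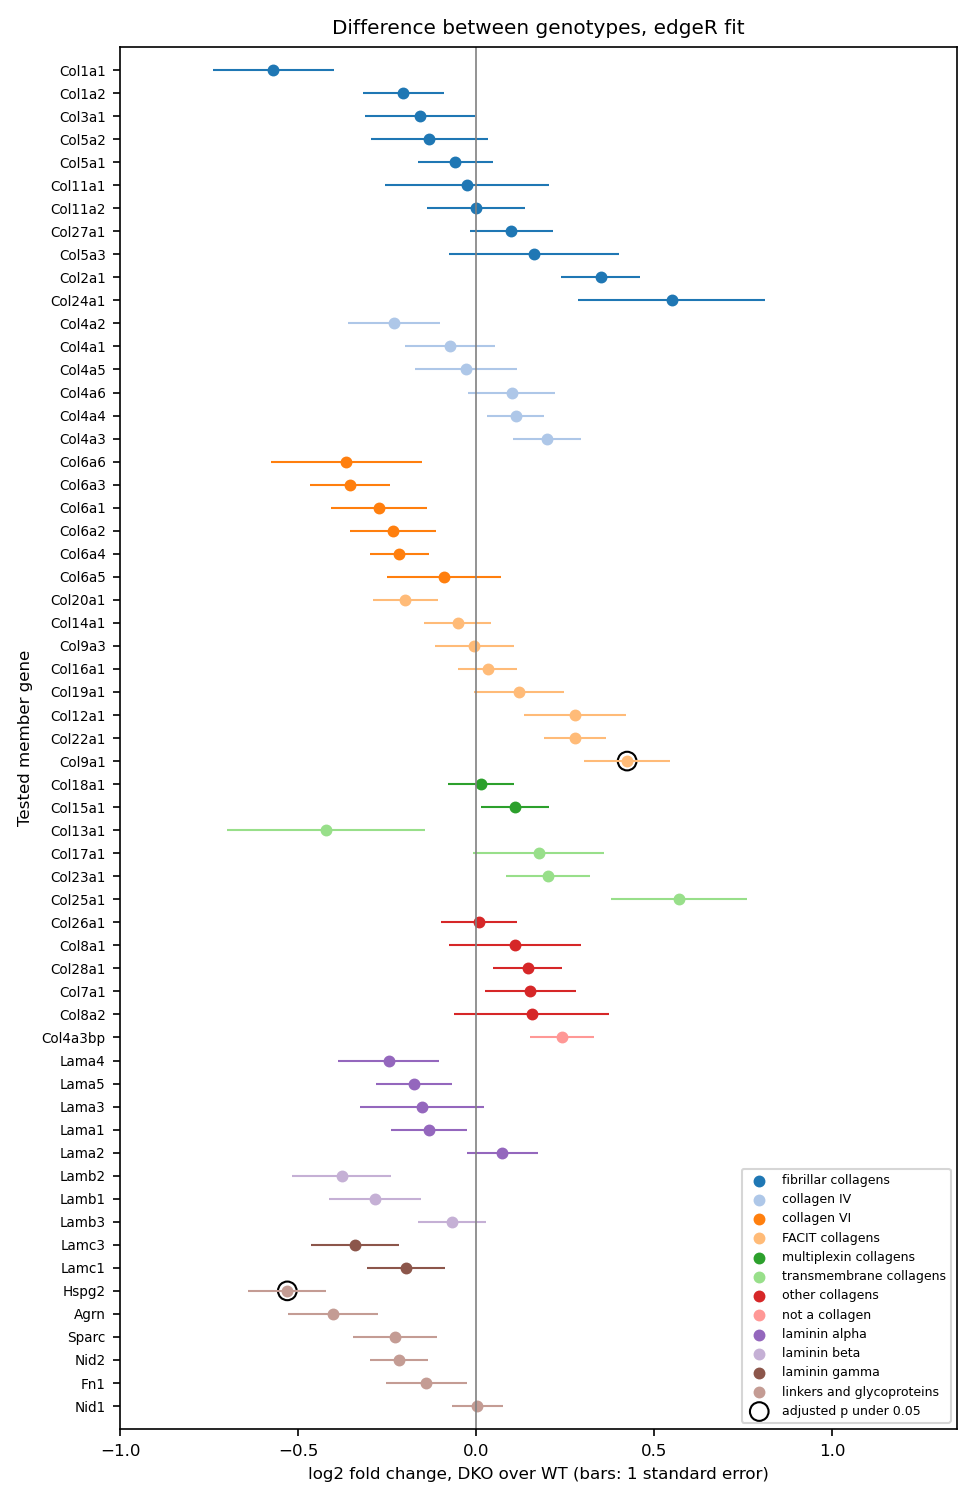
Log2 fold changes of tested members, DKO-labelled over WT-labelled, with bars of 1 standard error, coloured by family and circled where called. Hspg2 at -0.53 and Col9a1 at 0.42 are the called members, and the laminins and collagen VI chains lie mostly below 0.

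Hspg2 encodes perlecan, a large heparan sulfate proteoglycan of basement membranes, and was the member with the longest transcript (14177 bases) and the smallest p. Its normalized level was 29.2, 32.5 and 39.7 CPM in DKO-labelled libraries 1, 2 and 3 and 45.9, 53.2 and 47.5 CPM in WT-labelled libraries 1, 2 and 3. Every DKO-labelled library lay under every WT-labelled one. The means were 33.8 ± 5.41 and 48.9 ± 3.82 CPM (SD, n = 3), a difference of -30.8% in the fit (adjusted p = 0.0267 by edgeR, log2 fold change -0.53, SE 0.109). The deposited TPM did not overlap either, at 2.95 to 4.26 in the DKO-labelled and 4.75 to 6.06 in the WT-labelled libraries. Hspg2 kept its sign in all 16 alternative fits, with values from -0.67 to -0.08. The call was lost without DKO-labelled library 1 (edgeR adjusted p = 0.107), DKO-labelled library 2 (0.0594), WT-labelled library 2 (0.0940) or WT-labelled library 3 (0.0999). It was also lost with each library's trend on transcript length and GC content removed (-0.35, 0.0756) and with fragment length as a covariate (-0.08, 0.999). By limma the adjusted p was 0.0565 on log2(TPM + 1) and 0.0521 on log2(TPM + 0.1), again without a call.

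Col9a1 encodes the alpha 1 chain of type IX collagen, a fibril-associated collagen known from cartilage. Its level was 6.29, 5.95 and 5.24 CPM in the DKO-labelled libraries and 4.48, 4.39 and 4.14 CPM in the WT-labelled libraries. Every DKO-labelled library lay above every WT-labelled one. The means were 5.83 ± 0.54 and 4.33 ± 0.18 CPM (SD, n = 3), a difference of 34.1% in the fit (adjusted p = 0.0467 by edgeR, log2 fold change 0.42, SE 0.120). The call was lost without DKO-labelled library 1 (edgeR adjusted p = 0.181), DKO-labelled library 2 (0.112), WT-labelled library 1 (0.0664), WT-labelled library 2 (0.140) or WT-labelled library 3 (0.144). The call was also lost with the effective-length offset (edgeR adjusted p = 0.0519). By limma the adjusted p was 0.0971 on log2(TPM + 1) and 0.106 on log2(TPM + 0.1). With the length and GC trend removed the value was 0.49 (0.0506), and with fragment length as a covariate 0.20 (0.999), without a call in either. Its sign held in all 16 alternative fits.

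Type IX collagen has 3 chains, and the other two gave no call. Col9a3 was at 9.25, 7.65 and 8.78 TPM in the DKO-labelled and 9.53, 9.73 and 7.59 TPM in the WT-labelled libraries, with a log2 fold change of -0.01 (SE 0.111), and Col9a2 was near 0. Exons of Col9a3 share up to 234 bases with the gene Tcfl5 on the opposite strand, and its expected counts were not whole numbers. Whether shared reads affected its value was not tested. The difference between chains was not tested. Both Col9a1 starts printed above have a transcript in GENCODE M21, the long one of 3834 bases and the short one of 3059. The deposited length of Col9a1 was 3097 bases in all 6 libraries, 38 bases from the short transcript and 737 from the long one. The deposited length averages a gene's transcripts by abundance, so it lay near the short transcript in every library and showed no shift between the groups. The share of each start was not measured.

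**Figure D3:**
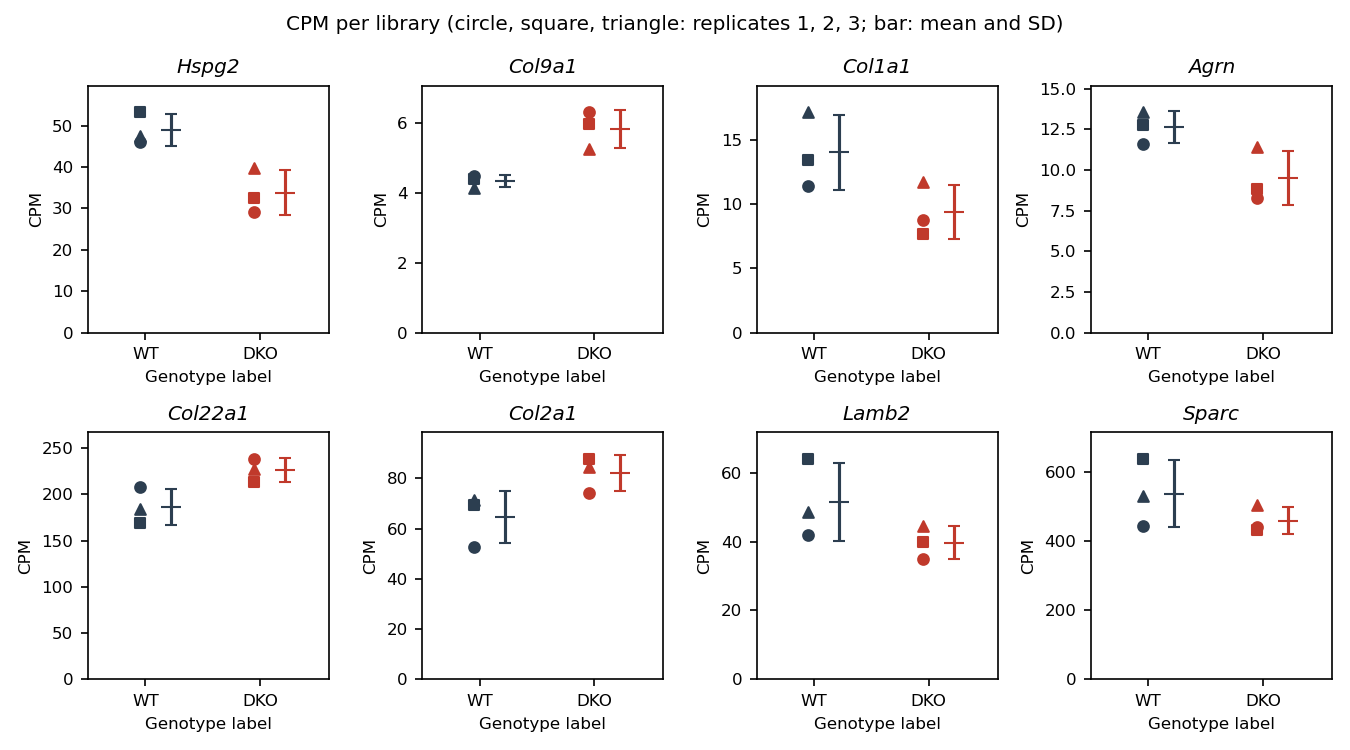
TMM-normalized CPM of Hspg2, Col9a1, Col1a1, Agrn, Col22a1, Col2a1, Lamb2 and Sparc in single libraries, with the mean and SD of each labelled group beside the points. The groups do not overlap for Hspg2, Col9a1, Agrn, Col22a1 and Col2a1, and overlap for Col1a1, Lamb2 and Sparc.

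The other fibril-associated collagens (FACIT), which decorate fibrils or tie them to neighbours, included the most abundant collagens in the tissue. Col22a1, a collagen of tissue junctions, was at 57.5, 50.3 and 57.8 TPM in the DKO-labelled and 50.9, 45.5 and 46.9 TPM in the WT-labelled libraries. These overlapped narrowly in TPM and not in CPM, and the log2 fold change was 0.28 (SE 0.0861, edgeR adjusted p = 0.0570). Col16a1 was at 38.3, 33.0 and 43.2 TPM against 39.5, 39.8 and 38.0 TPM in the WT-labelled libraries, with a log2 fold change of 0.03 (SE 0.0833). The spread of its DKO-labelled libraries enclosed all 3 WT-labelled values. Col20a1 was at 15.5, 18.2 and 15.3 TPM against 18.8, 20.4 and 19.9 TPM, lower in each DKO-labelled library on that scale, with a log2 fold change of -0.20 in the count fit (SE 0.0910, edgeR adjusted p = 0.158). Col12a1, Col14a1 and Col19a1 had log2 fold changes of 0.28, -0.05 and 0.12. Of the 8 FACIT chains tested, Col9a1 alone was called, where 10.8% of all genes were. DESeq2 called Col22a1 as well, where it called 21.3% of the genes to which it gave an adjusted p.

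Among the fibrillar collagens, which form the striated fibrils of the interstitium, 0 of 11 were called and the median log2 fold change was -0.03. At an unadjusted p under 0.05, 1 was higher (Col2a1) and 1 lower (Col1a1), where 31.7% of all genes passed in either direction. DESeq2 called the same chains, against 21.3% of the genes to which it gave an adjusted p. Col2a1, best known from cartilage, was at 22.5, 26.1 and 27.0 TPM in the DKO-labelled and 16.2, 23.4 and 22.9 TPM in the WT-labelled libraries. DKO-labelled library 1 fell inside the WT-labelled range in TPM, though CPM did not overlap. The log2 fold change was 0.35 (SE 0.112, edgeR adjusted p = 0.0617), and 0.58 with the length and GC trend removed, where it was called (0.0228). Col1a2, a chain of type I collagen, was at 10.3, 8.47 and 11.9 TPM against 10.02, 14.2 and 12.9 TPM, with a log2 fold change of -0.20 (SE 0.115).

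Col1a1, the other type I chain, was picked out after its values were seen because it had the largest negative fold change of the members (-0.57, SE 0.170, edgeR adjusted p = 0.0517). It was at 2.81, 2.41 and 3.95 TPM in the DKO-labelled and 3.72, 4.79 and 5.78 TPM in the WT-labelled libraries. DKO-labelled library 3 lay above WT-labelled library 1, so the groups overlapped. It passed the threshold without DKO-labelled library 3 and without WT-labelled library 1. With all libraries kept it also passed without a count filter, at a mean count of at least 50, after thinning and by DESeq2. The TPM ratio of Col1a2 to Col1a1 was 3.66, 3.51 and 3.01 in the DKO-labelled and 2.69, 2.97 and 2.22 in the WT-labelled libraries. The ratios did not overlap, and 3 against 3 libraries allow no exact permutation p below 0.1. Col3a1 had a value of -0.16 (SE 0.154), Col5a1, Col5a2 and Col5a3 of -0.06, -0.13 and 0.16, and Col11a1, Col11a2, Col24a1 and Col27a1 of -0.03, -0.00, 0.55 and 0.10.

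Collagen IV, the network collagen of basement membranes, has 6 chains whose genes lie in pairs. None was called, 0 passed an unadjusted p under 0.05 and 0 were called by DESeq2. Col4a1 was at 9.46, 8.55 and 11.2 TPM in the DKO-labelled and 8.19, 13.4 and 10.9 TPM in the WT-labelled libraries, with a log2 fold change of -0.07 (SE 0.127). The spread among the WT-labelled libraries was wider than the difference between groups. Col4a2, its partner in the ubiquitous heterotrimer, was at 8.23, 7.0 and 9.97 TPM against 8.09, 12.7 and 10.4 TPM (-0.23, SE 0.130). Both were highest in DKO-labelled library 3 and in WT-labelled library 2 within their groups.

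Col4a1 and Col4a2 start on opposite strands, and the start sites in the RefSeq promoter table leave 22 bases shared by both transcripts at chr8:11312805-11312826. This stretch is shown on the plus strand, with a GGGCGG match in capitals, because the paired genes share it. The full RefSeq spans, which include other starts, overlap by 85 bases.
Col4a1 and Col4a2: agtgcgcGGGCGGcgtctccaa
Their TPM ratio stayed close to 1, at 1.17 ± 0.05 in the DKO-labelled and 1.04 ± 0.02 in the WT-labelled libraries (SD, n = 3). The ratios did not overlap between the groups, and this ratio was examined after the values were seen. The chains of the specialized networks were lower in level. Col4a3 and Col4a4 averaged 2.52 and 3.72 TPM with log2 fold changes of 0.20 and 0.11. Col4a5 and Col4a6, whose start sites in the RefSeq promoter table lie 1343 bases apart (1275 between the full spans), were at 1.43 to 2.14 TPM and 1.0 to 1.27 TPM over the 6 libraries, with values of -0.03 and 0.10. The summed collagen IV level was 26.8, 23.95 and 31.5 TPM against 24.4, 36.1 and 30.4 TPM.

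Collagen VI forms beaded microfilaments next to basement membranes, and its 6 chains all had fitted values below 0, from -0.37 to -0.09 with a median of -0.25. Over all tested genes 50.7% were below 0. None of the chains was called by edgeR or DESeq2. At an unadjusted p under 0.05, 2 (Col6a3 and Col6a4) were lower, where 31.7% of all genes passed in either direction. Col6a1 was at 6.88, 6.43 and 8.57 TPM in the DKO-labelled and 6.86, 11.1 and 9.80 TPM in the WT-labelled libraries (adjusted p = 0.192 by edgeR, log2 fold change -0.27, SE 0.136). WT-labelled library 1 was as low as the DKO-labelled ones, and without it the gene passed the threshold (-0.44, 0.0366). Col6a3 at 0.92 to 1.05 against 1.21 to 1.41 TPM (-0.35, SE 0.112) and Col6a4 at 5.97 to 7.36 against 7.72 to 8.61 TPM (-0.22, SE 0.0827) did not overlap. The CPM of these 2 chains did not overlap either, as for 35.9% of all genes. Col6a2, Col6a5 and Col6a6 had values of -0.23, -0.09 and -0.37. The family median stayed below 0 in all 16 alternative fits, at -0.15 both with the trend removed and with fragment length as a covariate, where 5 of the 6 chains were below 0.

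No other collagen was called by edgeR. The multiplexins Col15a1 and Col18a1, basement membrane collagens that carry heparan or chondroitin sulfate chains, had values of 0.11 and 0.01. Col18a1 was at 10.7, 9.92 and 11.1 TPM in the DKO-labelled and 9.96, 13.2 and 9.90 TPM in the WT-labelled libraries, with all but WT-labelled library 2 close together. Among the transmembrane collagens, Col23a1 was at 1.6, 1.8 and 1.64 TPM against 1.54, 1.49 and 1.58 TPM (0.20, SE 0.117), higher in each DKO-labelled library. Col25a1 had the largest positive value of the members (0.57, SE 0.191, edgeR adjusted p = 0.0709) at only 0.63 TPM, and was called by DESeq2. Col13a1 and Col17a1 had values of -0.42 (SE 0.279) and 0.17. Col26a1 was at 4.54, 4.33 and 4.91 TPM against 5.07, 4.96 and 4.22 TPM (0.01, SE 0.107). Col7a1, the anchoring fibril collagen, the network chains Col8a1 and Col8a2, and Col28a1 had values from 0.11 to 0.16.

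Laminin values lay mostly below 0, without a call. Of the 11 chains, 10 had fitted values below 0, where 50.7% of all tested genes had. The median was -0.17 against -0.0042 for all genes. At an unadjusted p under 0.05, 3 were lower (Lamb1, Lamb2 and Lamc3) and 0 higher, where 31.7% of all genes passed in either direction. DESeq2 called Lamb2 and Lamc3, against 21.3% of the genes to which it gave an adjusted p. The median stayed below 0 in every alternative fit except that with fragment length as a covariate, where it was 0.13 and 3 of 11 chains were below 0. Lamb2, a beta chain of mature basement membranes, was at 9.18, 10.3 and 12.4 TPM in the DKO-labelled and 11.3, 18.8 and 13.6 TPM in the WT-labelled libraries. Only WT-labelled library 1 lay inside the DKO-labelled range (adjusted p = 0.0884 by edgeR, log2 fold change -0.38, SE 0.138). Lamb2 passed the threshold without DKO-labelled library 3 (-0.47, 0.0410) and without WT-labelled library 1 (-0.52, 0.0354).

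Lamc3, a gamma chain, was at 5.18, 5.91 and 7.02 TPM in the DKO-labelled and 6.87, 10.1 and 7.27 TPM in the WT-labelled libraries (-0.34, SE 0.125, edgeR adjusted p = 0.0886). DKO-labelled library 3 lay just above WT-labelled library 1 in TPM, and CPM did not overlap. Lamc3 passed the threshold without DKO-labelled library 3 (-0.43, 0.0375). Lama2, an alpha chain of muscle basement membranes, was the exception in sign, at 3.47, 2.91 and 3.69 TPM against 2.85, 3.70 and 3.55 TPM (0.07, SE 0.0988). Its groups overlapped throughout. The other alpha chains Lama1, Lama3, Lama4 and Lama5 had values of -0.13, -0.15, -0.25 and -0.17, Lamb1 and Lamb3 of -0.29 and -0.07, and Lamc1 of -0.20. Lamb2 was present at 2.75 times the TPM of Lamb1 and Lamc3 at 2.84 times that of Lamc1, averaged over libraries.

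The linker proteins and glycoproteins included the called Hspg2. Agrn, a second heparan sulfate proteoglycan, named after its values were seen, was at 1.64, 1.71 and 2.39 TPM in the DKO-labelled and 2.34, 2.84 and 2.85 TPM in the WT-labelled libraries (-0.40, SE 0.127, edgeR adjusted p = 0.0597). The groups overlapped slightly in TPM and not in CPM. Agrn was called by DESeq2 (adjusted p = 0.0267) and in no other alternative with all libraries kept. It passed the edgeR threshold without DKO-labelled library 3 (-0.56, 0.00977) and without WT-labelled library 1 (-0.48, 0.0497). With fragment length as a covariate its value was 0.01. The nidogens, which bridge laminin and collagen IV, differed in their values, with Nid1 at 7.53 to 7.99 against 7.89 to 8.49 TPM (0.00, SE 0.0719) and Nid2 at 7.10 to 8.11 against 8.40 to 10.4 TPM (-0.22, SE 0.0820, edgeR adjusted p = 0.0975). Fn1, fibronectin, had a value of -0.14 (SE 0.113), and Sparc one of -0.23 (SE 0.118, edgeR adjusted p = 0.205). Sparc passed the threshold without WT-labelled library 1 (-0.37, 0.0437). Col4a3bp was at 36.4, 30.9 and 31.4 TPM against 30.3, 28.4 and 29.0 TPM (0.24, SE 0.0901, edgeR adjusted p = 0.0945), and passed without DKO-labelled library 3 (0.30, 0.0421).

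**Figure D4:**
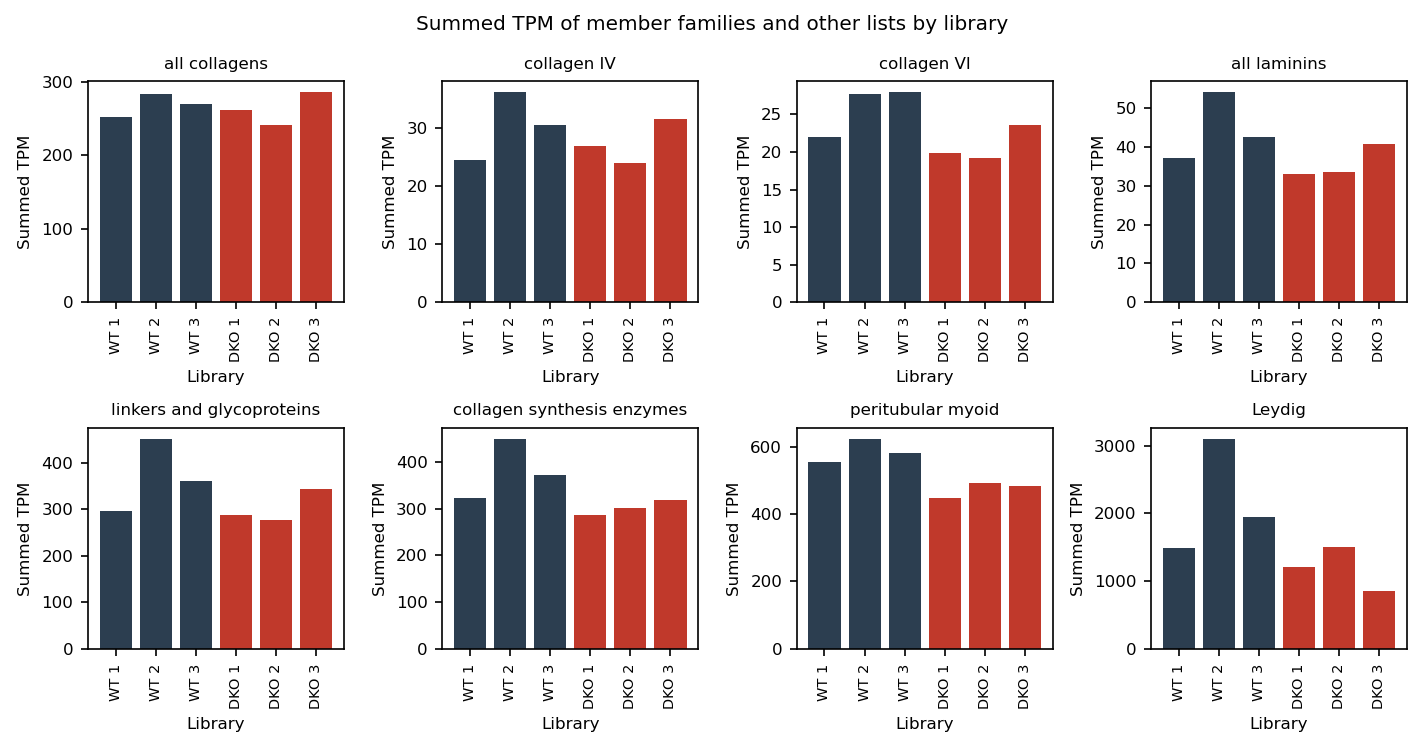
Bars of summed TPM in single libraries (dark blue WT-labelled, red DKO-labelled) for member families, collagen synthesis enzymes, and peritubular myoid and Leydig markers. The collagen sums of 241 to 286 TPM and 252 to 284 TPM overlap, and the laminin sum is highest in WT-labelled library 2 at 54.2 TPM.

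Summed over all members the level was 634 ± 61.9 TPM in the DKO-labelled and 712 ± 102 TPM in the WT-labelled libraries (SD, n = 3), a difference within the spread. The library with the highest CPM of each member within its group was counted, a count chosen after the values were seen. Among the DKO-labelled libraries, 39 of the 60 tested members had their highest CPM in library 3, 65% against 33% of all tested genes, and only 4 had it in library 2. Among the WT-labelled libraries, 27 had it in library 2, 45% against 31.4% of all genes, 18 in library 1 and 15 in library 3. On TPM the numbers were 49 and 36, where 48.4% and 49.5% of all tested genes also peaked in those libraries. With each library's length and GC trend removed they were 38 and 23, against 34.5% and 29.3%.

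Members are long, with a median transcript of 6046 bases against 2623 for tested genes. Among the 2550 tested genes of 5000 bases or more, 8.63% were called, 7.02% higher and 1.61% lower, with a median log2 fold change of 0.07. The 46 tested members of that length had a median of -0.03. With the length and GC trend removed, the median of the collagens was 0.12 and that of the laminins -0.15, and 1 member, Col2a1, was called against 2.92% of all genes. With fragment length as a covariate no member was called, against 0.00584% of all genes, and 1 had an unadjusted p under 0.05, against 3.19% of all genes.

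**Figure D5:**
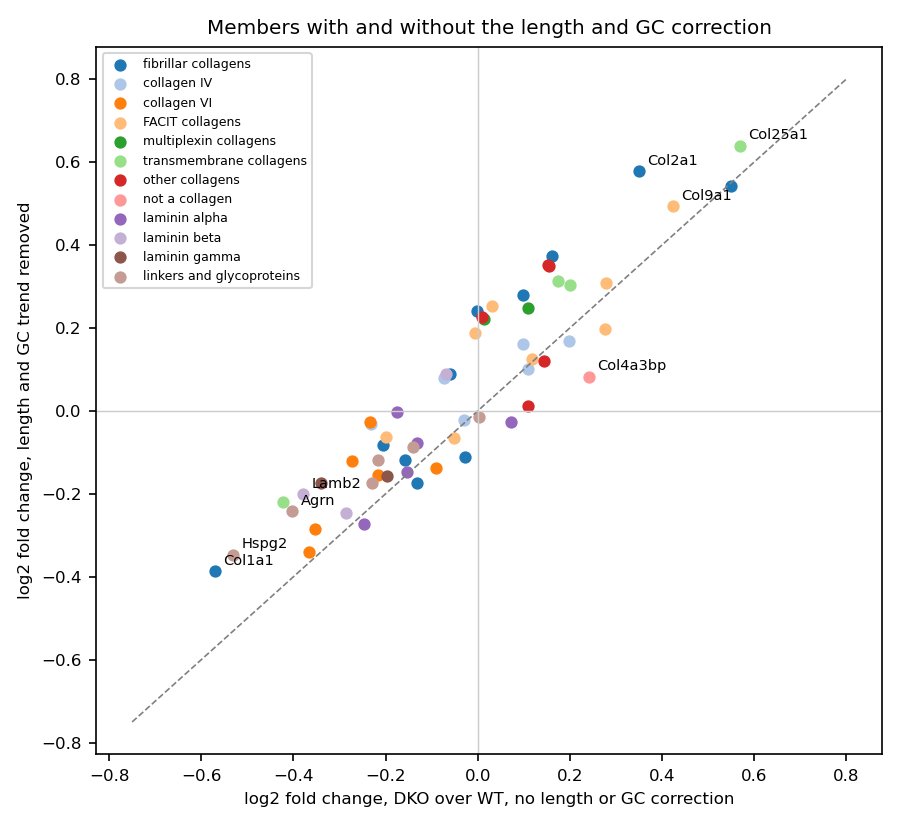
Log2 fold changes of tested members, DKO-labelled over WT-labelled, without (horizontal) and with (vertical) removal of each library's trend on transcript length and GC content, with a dashed line where both are equal. Hspg2 moves from -0.53 to -0.35 and Col2a1 from 0.35 to 0.58.

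The deposited lengths average a gene's transcripts by abundance. They were compared for 11 of the 13 members with several transcripts, those with a mean count of at least 50 and a length that varied between libraries. Col13a1, under that count, and Col9a1, with a constant length, were not compared. None of the 11 lengths separated the groups: exact two-sided permutation p was 0.4 or more, where 0.1 is the smallest that 3 against 3 libraries allow. Fn1, with 7 transcripts, averaged 8125 ± 29.4 bases in the DKO-labelled and 8136 ± 30.2 bases in the WT-labelled libraries (SD, n = 3, exact permutation p = 0.7). Exons of 20 members overlapped those of another gene in GENCODE M21, mostly on the opposite strand. The longest overlaps were Nid2 with Rtraf (437 bases) and Lamc3 with Gm13441 (329 bases). Reads of overlapping genes cannot be told apart where strand was not used, so those values carry that limit. Expected counts were not whole in at least 1 library for 4 members, Col6a5, Col6a6, Col9a3 and Nid2. Of these, Col6a6, Col9a3 and Nid2 overlap another gene. What made the counts fractional was not tested.

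Of the enzymes and chaperones that modify, fold and crosslink collagen, 30 were tested. Among them 3 were called, all lower, against 5.1% of all genes called lower and 10.8% called in either direction. At an unadjusted p under 0.05, 13 were lower and 2 higher, where 31.7% of all genes passed in either direction. DESeq2 called 8 lower and 1 higher, against 9.07% and 12.2% of the genes to which it gave an adjusted p. Fitted values were below 0 for 24 of the 30 enzymes and chaperones, and the median was -0.22. Crtap, part of the prolyl 3-hydroxylation complex, was at 13.6, 14.9 and 13.5 TPM in the DKO-labelled and 19.2, 24.5 and 19.9 TPM in the WT-labelled libraries (-0.56, SE 0.101, edgeR adjusted p = 0.0237). Serpinh1, the collagen chaperone HSP47, was at 9.32, 8.52 and 10.9 against 11.7, 15.3 and 13.8 TPM (-0.45, SE 0.102, edgeR adjusted p = 0.0301). Loxl1, a crosslinking oxidase, was at 9.37, 12.02 and 10.8 against 14.8, 17.3 and 16.4 TPM (-0.53, SE 0.101, edgeR adjusted p = 0.0250). The groups did not overlap for any of these enzymes. Whether this list differs from the collagens was not tested.

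Of 25 matrix receptors tested, such as integrins, dystroglycan and syndecans, none was called, and the median was -0.12. At an unadjusted p under 0.05, 3 were higher and 2 lower, against 31.7% of all genes in either direction. DESeq2 called 1 receptor, Bcam, lower, against 9.07% of the genes to which it gave an adjusted p. Of 23 proteases and inhibitors, only Mmp14, a membrane collagenase, was called lower (-0.30, SE 0.0798, edgeR adjusted p = 0.0402), where 5.1% of all genes were. The median was -0.12. At an unadjusted p under 0.05, 2 proteases or inhibitors were lower and 0 higher, again against 31.7% of all genes. Of 44 other matrix proteins, 3 were called lower and 1 higher (5.1% and 5.75% of all genes were), with a median of -0.14. These were Thbs3 (-0.45, edgeR adjusted p = 0.0233), the calcification inhibitor Mgp (-1.01, 0.0303), Efemp2 (-0.54, 0.0394) and, higher, Emilin2 (0.33, 0.0475). Of these 8 called genes of the 4 lists, all kept their sign when single libraries were left out. The number still called was 0 without DKO-labelled library 1, WT-labelled library 2 or WT-labelled library 3, 3 without DKO-labelled library 2, 8 without DKO-labelled library 3 and 7 without WT-labelled library 1. With the length and GC trend removed 2 stayed called, and Crtap (adjusted p = 0.0522 by edgeR), Serpinh1 (0.0911) and Loxl1 (0.0574) were among those lost.

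Some markers of the somatic cell types were called lower in the DKO-labelled libraries, and their part in the results was not tested. In bulk tissue fewer cells of a type and less RNA per cell cannot be told apart. All 10 peritubular myoid markers had fitted values below 0 (median -0.32), 3 were called lower (5.1% of all genes were), led by Myl9 (-0.58, edgeR adjusted p = 0.0225), and their summed level was 448 to 492 TPM in the DKO-labelled and 555 to 625 TPM in the WT-labelled libraries. Of 12 Sertoli markers 4 were called lower, led by Defb19 (-0.97, 0.0121), with a median of -0.18 and sums of 1817 to 2272 against 2277 to 2832 TPM. Fitted values were above 0 for 3 of the 12, by up to 0.08. Of 8 Leydig markers 3 were called lower, led by Star (-0.79, 0.0225), with a median of -0.49 and sums of 846 to 1502 against 1483 to 3106 TPM. Fitted values were above 0 for 2 of the 8, by up to 0.44. The myoid and Sertoli sums did not overlap and the Leydig sums overlapped slightly.

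Of 10 endothelial and 8 interstitial fibroblast markers none was called by edgeR or DESeq2. At an unadjusted p under 0.05, 1 and 5 were lower, where 31.7% of all genes passed in either direction. Fitted values were above 0 for 3 and 2 of these markers. Their medians were -0.09 and -0.37, and their sums of 16.1 to 20.3 against 18.2 to 22.6 TPM and 41.2 to 51.7 against 42.7 to 58.0 TPM overlapped. Dcn and Lum belong to both the fibroblast list and the other matrix proteins. No marker of these lists was at 0 in all libraries. Of the 13 called markers in all cell type lists, germ cell lists included, 2 stayed called without DKO-labelled library 1, 8 without DKO-labelled library 2, 13 without DKO-labelled library 3, 12 without WT-labelled library 1, 1 without WT-labelled library 2 and 0 without WT-labelled library 3. With the length and GC trend removed 7 of the 13 stayed called.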

How the data were processed

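The members and gene lists were chosen with earlier results of these data known. Expected counts, deposited by the authors per gene and library, come from RSEM per the file headers, and 93.2% of values were whole. TPM values, deposited by the authors per the file headers, are scaled to transcript and fragment length. The submitters' processing notes name STAR 2.7.0f, RSEM 1.2.31, DESeq2 1.12.3 and mm10, with no roles. Strand handling is not given in the sources used here. Libraries were grouped by genotype label and numbered in deposition order, so numbers pair nothing.

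Expected counts were rounded, filtered by filterByExpr, scaled by TMM and tested with edgeR 4.0.16 (quasi-likelihood, R 4.3.3) on all 6 libraries with genotype alone, and p-values were adjusted by Benjamini-Hochberg over 17110 genes. The standard error is the size of the log2 fold change divided by the square root of F. The biological coefficient of variation was 9.34%. The procedure was tested on simulated data.

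Fragment length per library was derived from the gap between deposited length and effective length (median over genes above 3000 bases, with 1 added). Alternatives were DESeq2 1.42.0 and its size factors, other count filters, offsets from effective length or from a smooth trend on length and GC content (mgcv 1.9.3, GC for 97.8% of genes), fragment length as a covariate, thinning, limma 3.58.1 on log2(TPM + 1) and log2(TPM + 0.1), and leaving out each library. Library peaks on TPM and trend-removed CPM were added after seeing the data.

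Values per library are printed for called members, the 8 with the highest mean TPM and, for other families, the member with the highest TPM. Those of Col1a1, Agrn, Col4a2 and Col9a3 were added outside that rule, after the values were seen. Of each pathway list up to 3 called genes with the smallest p are named (Emilin2 was added after its values were seen), and of each marker list 1. For 1 member no values are reported here, singly or in the plots of single members, though the counts and medians include it. RefSeq positions and sequences are on GRCm38.p6. Counting error is included in the model, and the total counts above limit the precision of low genes.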

Additional observations from a re-analysis of the deposited data

How the results depend on the processing

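The number of members called, 2 (1 higher, 1 lower), was 2 with DESeq2 size factors, 5 without a count filter (3 higher, 2 lower), 3 at a mean count of at least 50 and 3 after thinning (1 higher, 2 lower in both), and 9 by DESeq2 (4 higher, 5 lower). It was 1 with the effective-length offset (0 higher, 1 lower) and 1 with the length and GC trend removed (1 higher, 0 lower). It was 0 with fragment length as a covariate and by limma on log2(TPM + 1) and log2(TPM + 0.1), with 0 in each direction and 1, 12 and 11 members at an unadjusted p under 0.05. Leaving out single libraries gave 0 to 9 members called, 0 to 3 higher and 0 to 7 lower. The cause was not tested. The share of all genes called was 11% without a filter, 14% at the higher count minimum, 9.74% after thinning, 9.71% with the effective-length offset, and 4.3% and 5.53% by limma. No named member that was called changed sign under any alternative. Of 272 values of named members under alternatives, 240 kept their side of the threshold, 18 lost it and 14 gained it. All 18 losses were calls of Hspg2 and Col9a1, the only called members. Hspg2 kept its call in 6 of the 10 alternatives with all libraries and in 2 of the 6 that left 1 out. Col9a1 kept its call in 5 and 1 of these. Fragment length separates the groups, so its covariate and the genotype compete for the same 6 libraries. The pathway and marker medians moved beyond the replicate spread in 6 of 104 alternatives, for the fibroblast, Sertoli and spermatid lists. No paired analysis was possible because the labels give no replicate numbers shared by the groups. Depth limited the members under 1 TPM most, with standard errors up to 0.279 for Col13a1.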

Other observations

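Germ cell and macrophage markers were read in the same fit. Of 8 spermatocyte markers 2 were called higher in the DKO-labelled libraries (5.75% of all genes were), led by Sycp3 of the synaptonemal complex (log2 fold change 0.67, edgeR adjusted p = 0.0237), and the list's median was 0.23. Of 8 spermatid markers 1 was called higher, Akap4 of the sperm tail (0.35, 0.0341), with a median of -0.04 that became 0.15 with the effective-length offset and 0.17 with the length and GC trend removed. Of 7 spermatogonia markers none was called by edgeR or DESeq2, with 0 at an unadjusted p under 0.05 and a median of 0.0043. Of 8 macrophage markers none was called by either tool, with 1 higher and 2 lower at an unadjusted p under 0.05 and a median of -0.29. Over all genes 31.7% passed that unadjusted threshold. How these shifts relate to the matrix genes was not tested.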
